A study of Mus musculus with 12 samples.

Results

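The genes described here make, sense and carry cholesterol. They are 35 mouse genes taken by name: apolipoproteins, the receptors, exporters and lysosomal proteins that move cholesterol between cells and compartments, the sensors that regulate its synthesis, 17 enzymes of the synthesis pathway, and the sterol carrier Stard4. A gene was included where its name equals an entry of the deposited islet expression table, and 34 of the 35 do so, out of 24078 entries in all. The missing name is Msmo1, which leaves 16 enzymes. Apoe, which encodes a protein of lipoprotein particles and a ligand of their receptors, was also set against the enzymes as a group.

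Pancreatic islet RNA was sequenced from 12 mice of 3 genotypes, with 4 animals and 1 library per animal in each: wild type (WT), heterozygous (Wfs1HZ) and homozygous (Wfs1KO) for the Wfs1tm1Koks mutation. The mutation puts a LacZ cassette in place of most of exon 8 of Wfs1, so that a fusion of the WFS1 N-terminal part with LacZ is made. It is carried in all cells of the animal and not in islet cells only. All groups were male F2 hybrids of 129S6/SvEvTac and C57BL/6, 5 to 6 months old, and islets were picked by hand and kept in high glucose medium before RNA was taken. The study asked what loss of WFS1, a membrane protein of the endoplasmic reticulum, does to islets, and the 3 pairs of genotypes were compared. Each pair shares a group of animals with each other pair, so the comparisons are not independent.

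Cells make cholesterol from acetyl-CoA through mevalonate, farnesyl diphosphate, squalene and lanosterol. When sterol is scarce in the endoplasmic reticulum, SCAP escorts the SREBP transcription factors to the Golgi for cleavage, and the released fragments switch on the synthesis genes. When sterol is plentiful, INSIG proteins hold SCAP back. Surplus cholesterol leaves through ABCA1 and ABCG1 onto apolipoproteins, a route under the nuclear receptor LXR. Apoe RNA is best known from liver, macrophages, glia and stromal cells, and Clu (clusterin), another apolipoprotein, is secreted by many epithelia.

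Promoter sequence was read for the genes on which the results turn, because SREBP and its partner NF-Y bind known letters. A RefSeq promoter window (250 bases before to 50 after the gene start, GRCm38.p6) was found for 25 of the 34 genes. The classical sterol regulatory element was searched as TCACNCCAC and the NF-Y box as CCAAT, each on both strands. The element occurred in the windows of 1.44% of 27025 genes and in 1 of the 25 members, Hmgcs1, where it begins 137 bases before the start. The CCAAT box occurred in 41.06% of all genes and in 17 of the 25 members. Those 17 are 12 of 13 enzymes, 4 of 5 regulators and 1 of 7 apolipoprotein and transport genes. A match is a description of letters and not evidence of binding. Only exact matches to these letters were counted, so a window without a match is not shown to lack an element. Below are 150 bases from the windows of 4 enzymes, of Srebf2 and of Apoe, each on the strand of its gene, with capitals for the matched letters (ATTGG is CCAAT read from the other strand). The Hmgcs1 stretch is chr13:119690201-119690350 (plus strand), that of Lss chr10:76531438-76531587 (plus), Sc5d chr9:42264301-42264450 (minus), Mvd chr8:122443423-122443572 (minus), Srebf2 chr15:82147031-82147180 (plus) and Apoe chr7:19699189-19699338 (minus). The matched letters do not overlap each other in these stretches, and the Apoe stretch holds no match. The stretches of Hmgcs1, Sc5d, Mvd and Apoe end at the base before the RefSeq start. Those of Lss and Srebf2 end before the GENCODE start, which lies 17 and 88 bases upstream of the RefSeq start.
Hmgcs1: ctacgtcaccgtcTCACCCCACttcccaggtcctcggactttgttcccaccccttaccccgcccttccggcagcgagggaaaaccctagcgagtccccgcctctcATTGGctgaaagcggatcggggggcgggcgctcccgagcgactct
Lss: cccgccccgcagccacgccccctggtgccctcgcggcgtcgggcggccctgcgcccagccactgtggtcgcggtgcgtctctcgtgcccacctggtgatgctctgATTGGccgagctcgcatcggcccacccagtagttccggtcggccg
Sc5d: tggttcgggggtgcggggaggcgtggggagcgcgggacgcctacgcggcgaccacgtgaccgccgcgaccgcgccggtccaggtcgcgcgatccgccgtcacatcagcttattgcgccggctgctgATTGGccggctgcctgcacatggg
Mvd: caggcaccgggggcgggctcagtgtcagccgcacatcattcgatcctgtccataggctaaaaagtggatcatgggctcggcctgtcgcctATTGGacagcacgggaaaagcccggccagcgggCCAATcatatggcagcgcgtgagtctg
Srebf2: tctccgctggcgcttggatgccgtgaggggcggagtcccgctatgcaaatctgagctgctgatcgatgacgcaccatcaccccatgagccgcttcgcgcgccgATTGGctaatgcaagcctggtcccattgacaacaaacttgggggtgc
Apoe: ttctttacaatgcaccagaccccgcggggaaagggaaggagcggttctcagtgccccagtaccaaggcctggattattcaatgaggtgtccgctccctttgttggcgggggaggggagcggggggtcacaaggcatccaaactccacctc

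Expression was deposited as RPKM, read counts divided by transcript length and by library size, so that levels of different genes can be set side by side. The reads behind the values were estimated at 2908000 to 8924000 per WT library, 2192000 to 7340000 per Wfs1HZ library and 3286000 to 9562000 per Wfs1KO library. The shallowest were WT 3, Wfs1HZ 2 and Wfs1KO 4. Wfs1 itself averaged 28.6 ± 3.83 RPKM in WT, 11.1 ± 5.59 in Wfs1HZ and 4.40 ± 1.83 in Wfs1KO (mean ± SD, n = 4), and no mutant animal reached the lowest WT value. Insulin RNA (Ins2) was present in every library, from 6423 to 76687 RPKM, while the beta cell factor Mafa was at 0.35 RPKM or less in all. Acinar RNA was also present in every library: 11 acinar marker genes summed to 8466 RPKM in Wfs1KO 4 and 9046 in Wfs1HZ 2, against 53520 to 306470 in the other libraries. Wfs1HZ 2 and Wfs1KO 4 also had the highest summed stromal markers, 425 and 153 RPKM, against 14.1 to 82.6 in the other libraries. The differences of Apoe, Clu and Pltp, which had extreme values in these libraries, are also given without them. In bulk RNA, fewer cells of a type and less RNA per cell cannot be told apart.

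Most of the genes had a higher mean in Wfs1KO than in WT islets, but no member passed the test after adjustment. Differences were tested with limma on log2(RPKM + 0.1) over the 21701 entries with a mean of at least 0.1 RPKM, which all 34 members passed, with Benjamini-Hochberg adjustment over all of them. No member had an adjusted p under 0.05 or under 0.2 in any comparison, and the lowest was that of Apoe in Wfs1KO against WT (0.435), while 0.0461% of all entries had an adjusted p under 0.2 in Wfs1KO against WT. In that comparison 27 of 34 members were higher and 7 lower, with a median log2 difference of 0.43, where 57.4% of all entries were higher and their median was 0.07. An unadjusted p under 0.05 was found for 10 members (29.4%), against 5.64% of all entries. Of the 10, 9 were higher, against 3.91% of entries called higher, and Abca1 was lower. For 4 members (11.8%) no animal of either genotype lay within the values of the other, against 2.74% of all entries, and all 4 were higher, against 1.75% of entries. The 4 are Apoe, Lss, Hmgcs1 and Sc5d. Here and below, overlap was judged on the values as deposited. After division by the median-of-ratios factor of each library (0.884 in WT 4, 1.20 in Wfs1KO 4), only Apoe of these 4 stayed without overlap. Among all entries with an unadjusted p under 0.05, 69.2% were higher, 56.6% with values scaled by the median of ratios and 46.8% with quantile-normalized values, and 9 of 10 members with such a p were higher under each of the 3 scalings. The count of 10 fell to 4 without WT 2, to 4 without Wfs1KO 1 and to 5 without Wfs1KO 2.

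Between heterozygous and WT islets the differences of these genes lay on both sides of 0. In Wfs1HZ against WT, 19 members were higher and 15 lower, with a median log2 difference of 0.07. In limma no member had an unadjusted p under 0.05 and none was without overlap, where 2.35% and 1.66% of all entries were. The lowest limma p was that of Fdps (log2 difference -0.66, SE 0.30, exact permutation p = 0.0571). Wfs1KO against Wfs1HZ again had most members higher, 30 against 4, with a median of 0.43, where 53.5% of all entries were higher. An unadjusted p under 0.05 was found for 6 members (17.6%), against 2.45% of entries, all 6 of them higher, against 1.7% of entries. No overlap was found for 3 members (8.82%), against 1.43% of entries, and all 3 were higher, against 0.926%. They are Mvk, Sqle and Srebf2. After division by the median-of-ratios factors (0.641 in Wfs1HZ 4, 1.20 in Wfs1KO 4), only Mvk of these 3 stayed without overlap. With values scaled by the median of ratios 5 members had such a p, 4 of them higher, and 49.8% of the entries so called were higher (51.2% when quantile-normalized, again with 4 of 5 members), against 69.2% as deposited. The count of 6 fell to 2 without Wfs1HZ 1, without Wfs1KO 1 or without Wfs1KO 2.

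**Figure D1:**
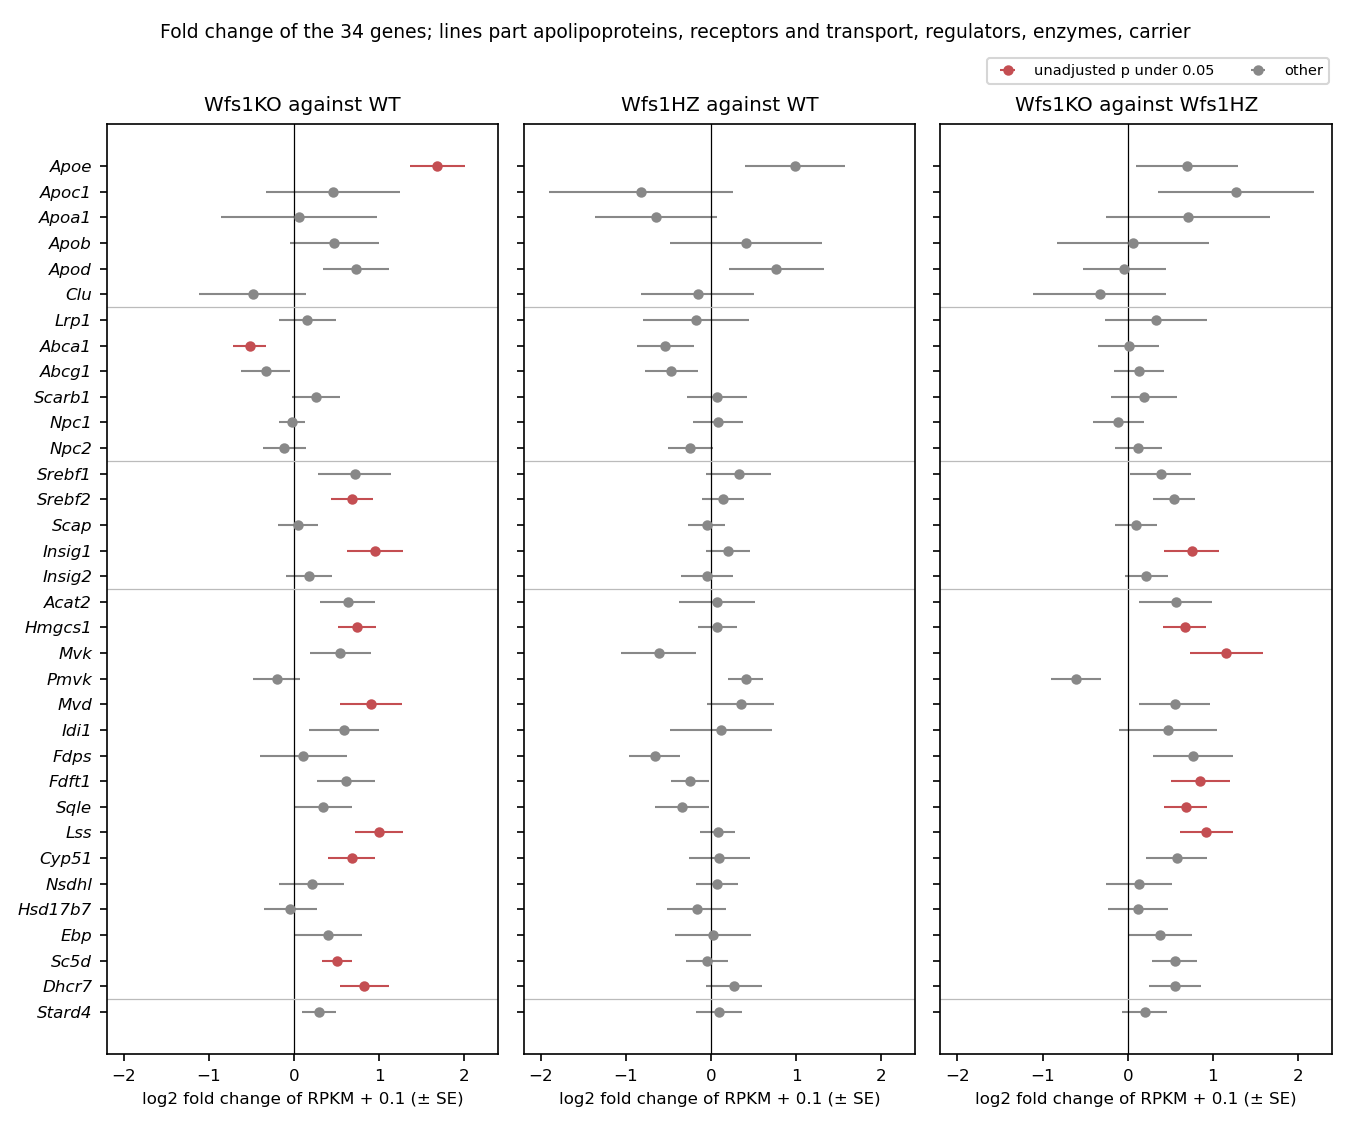
Log2 difference of RPKM + 0.1 (x axis, points, with the standard error as bars) of the 34 genes (y axis, by role) in the 3 comparisons of genotypes, 4 animals a genotype; red marks an unadjusted limma p under 0.05. The enzymes and regulators lie mostly to the right of 0 in both comparisons with Wfs1KO and on both sides of it in Wfs1HZ against WT, where no gene is red.

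Apoe had the largest difference among the members in Wfs1KO against WT. In the order of animals 1 to 4, which is kept throughout, Apoe stood at 4.80, 6.30, 6.54 and 3.72 RPKM in WT, at 9.14, 34.7, 11.01 and 3.32 RPKM in Wfs1HZ, and at 21.3, 12.5, 11.3 and 27.3 RPKM in Wfs1KO. Every Wfs1KO animal was above every WT animal, while the Wfs1HZ animals spanned the values of both other groups. These levels rest on roughly 36 to 435 reads a library. The log2 difference between Wfs1KO and WT was 1.68 (SE 0.32, 3.21-fold), with a limma adjusted p of 0.435, and 24 was its rank among the p-values of all entries. A two-sided permutation test with all splits of the 8 animals (exact, and used for every gene named here) gave p = 0.0286, the smallest that 4 against 4 animals allow. Every gene whose 4 and 4 animals do not overlap gets this p, so it restates the lack of overlap and adds no support to it. Without Wfs1KO 4 the log2 difference was 1.46, and it reached 1.88 without Wfs1KO 3. Wfs1HZ differed from WT by 0.99 on the log2 scale (SE 0.59, exact permutation p = 0.229) and by 0.41 without Wfs1HZ 2. Without Wfs1HZ 4 that difference was 1.53, with an unadjusted limma p under 0.05. Wfs1KO differed from Wfs1HZ by 0.70 (SE 0.60, exact permutation p = 0.429). This became 1.27 without Wfs1HZ 2, with an unadjusted limma p under 0.05, and 0.16 without Wfs1HZ 4.

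Stromal markers had higher means in the same genotype as Apoe. Of 8 stromal marker genes, 7 had a higher mean in Wfs1KO than in WT, with a median log2 difference of 1.20. Of the 8, 2 had an unadjusted p under 0.05, against 5.64% of all entries. That share applies to each marker list below. One of the 2 was Dcn, which encodes the matrix protein decorin: 15.8, 22.1, 28.8 and 14.0 RPKM in WT and 42.0, 49.8, 43.9 and 73.1 in Wfs1KO. The stromal sum ranged from 21.4 to 62.4 RPKM in WT, 14.1 to 425 in Wfs1HZ and 62.1 to 153 in Wfs1KO, and the animals with the highest and the lowest stromal sum, Wfs1HZ 2 and Wfs1HZ 4, also had the highest and the lowest Apoe. WT 3 and Wfs1KO 3 had nearly equal stromal sums (62.4 and 62.1), with 6.54 and 11.3 RPKM of Apoe. This pair was not matched in other respects. Its mean log2 stromal levels were 2.48 in WT 3 and 1.82 in Wfs1KO 3, and Dcn was at 28.8 and 43.9 RPKM. Endothelial markers were higher in Wfs1KO than in WT for 6 of 6 genes, 1 with an unadjusted p under 0.05. Their sum ranged from 19.8 to 52.5 RPKM in WT, 19.7 to 98.2 in Wfs1HZ and 56.4 to 65.8 in Wfs1KO. The highest endothelial sum was that of Wfs1HZ 1, where Apoe was at 9.14 RPKM. Of the 13 macrophage markers measured, 10 had a higher mean in Wfs1KO and 1 had an unadjusted p under 0.05, C1qb, at a mean of 0.125 RPKM in WT and 1.33 in Wfs1KO. The macrophage sum overlapped widely: 70.1 to 206 RPKM in WT, 80.1 to 137 in Wfs1HZ and 46.5 to 147 in Wfs1KO. Cd68 alone gave 142 of the 206 RPKM in WT 4. Of 7 hepatocyte and enterocyte markers 5 had a higher mean in Wfs1KO than in WT, with a median log2 difference of 1.08, none of the 5 with an unadjusted p under 0.05, and 1 lower with such a p. The mean log2(RPKM + 0.1) of this list was highest in Wfs1KO 4 (3.44) and Wfs1HZ 2 (2.48), the animals with the highest Apoe, against 0.11 to 1.70 in the others. Its sum, nearly all of it from Ttr, which alpha cells also express, ranged from 740 to 3380 RPKM in WT, 1069 to 2357 in Wfs1HZ and 697 to 3827 in Wfs1KO, while albumin (Alb) was at 8.01 RPKM or less in every library. Of 6 glial markers 4 had a higher mean in Wfs1KO than in WT, none with such a p. The mean log2 level of the glial list was also highest in Wfs1HZ 2 (0.83) and Wfs1KO 4 (-0.30), and its sum was 3.45 to 4.56 RPKM in WT, 3.42 to 13.5 in Wfs1HZ and 3.80 to 7.01 in Wfs1KO. The part of these cell types in the Apoe difference was not tested.

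**Figure D2:**
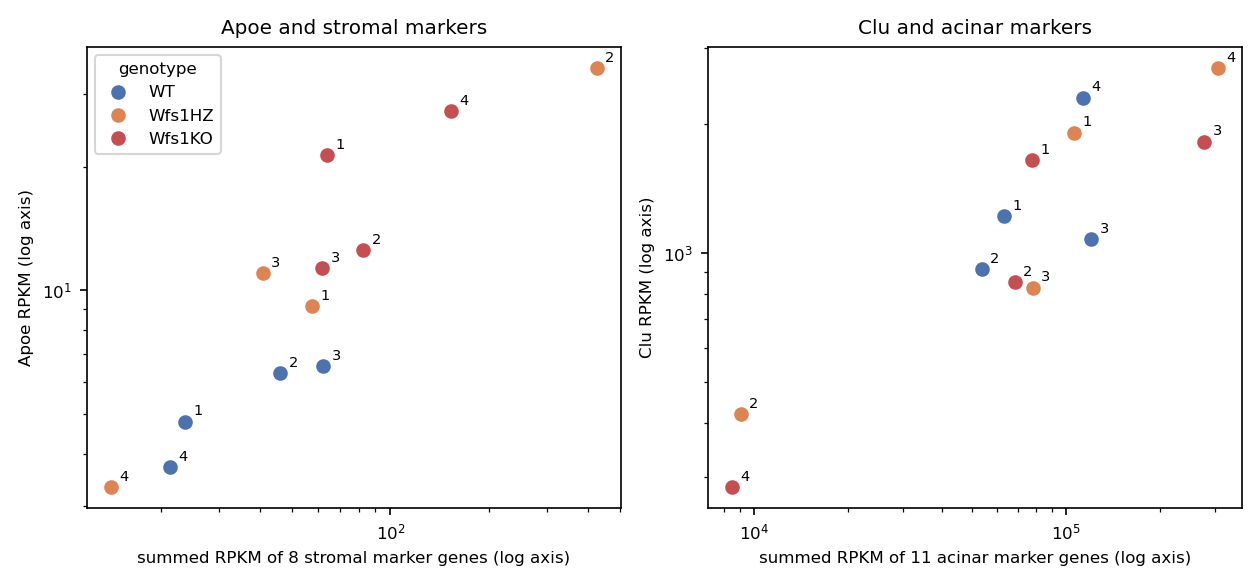
Left, Apoe RPKM (y) against the summed RPKM of 8 stromal marker genes (x) in each of the 12 animals, numbered, both on log axes; right, Clu against 11 acinar marker genes. Wfs1HZ 2, with the highest stromal sum (425 RPKM), has the highest Apoe (34.7 RPKM), and Wfs1KO 4 and Wfs1HZ 2, with the lowest acinar sums, have the lowest Clu.

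Clu was by far the most abundant member. It stood at 1215, 916, 1077 and 2299 RPKM in WT, at 1907, 420, 828 and 2698 in Wfs1HZ, and at 1646, 853, 1817 and 283 in Wfs1KO. The 3 genotypes overlapped fully, and the lowest values were those of Wfs1KO 4 and Wfs1HZ 2, the libraries with the lowest acinar sums. Wfs1KO differed from WT by -0.48 on the log2 scale (SE 0.63, exact permutation p = 0.6). Without Wfs1KO 4 the difference was 0.08, so this library set its direction, and the part of acinar RNA in the level of Clu was not tested. Apod, an apolipoprotein of the lipocalin family, had a mean of 4.16 RPKM in WT, 7.92 in Wfs1HZ and 6.49 in Wfs1KO, with no unadjusted p under 0.05. Apob, the structural protein of low-density lipoprotein, did not exceed 0.89 RPKM except in Wfs1HZ 2, at 2.96. Apoc1 lay between 0 and 1.24 RPKM and Apoa1 between 0 and 1.53, on at most about 8.2 and 6.2 estimated reads, so a difference in either was not detectable at this estimated depth.

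Of the 6 genes for receptors, exporters and lysosomal transfer, 2 had a higher and 4 a lower mean in Wfs1KO than in WT. Abca1 alone (16.7% of the 6) had an unadjusted p under 0.05, against 5.64% of all entries. Abca1, the exporter that hands cholesterol to lipid-poor apolipoproteins, stood at 19.2, 19.4, 17.8 and 14.5 RPKM in WT, at 20.0, 12.3, 14.5 and 5.99 in Wfs1HZ, and at 11.9, 16.1, 10.96 and 10.6 in Wfs1KO. Of the Wfs1KO animals 3 were below all WT animals, and Wfs1KO 2 lay within the WT values. The log2 difference was -0.52 (SE 0.19, exact permutation p = 0.0571, limma adjusted p = 0.835). Its unadjusted limma p was no longer under 0.05 without WT 1 or without WT 2. Abca1 was also lower in Wfs1HZ than in WT, by -0.54, with a larger error (SE 0.34, exact permutation p = 0.257).

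Npc2, which passes cholesterol to NPC1 inside the lysosome, had the highest level of the group: 76.5, 76.8, 52.8 and 45.9 RPKM in WT, 50.01, 54.7, 71.7 and 37.2 in Wfs1HZ, and 68.6, 48.5, 42.6 and 73.0 in Wfs1KO. The genotypes overlapped, and the log2 difference between Wfs1KO and WT was -0.11 (SE 0.25). Npc1 differed between Wfs1KO and WT by -0.03 on the log2 scale (SE 0.16). Abcg1, the second exporter, had a mean of 15.1 RPKM in WT, 10.8 in Wfs1HZ and 11.7 in Wfs1KO. Lrp1, a receptor that takes up APOE-bearing particles, and Scarb1, the receptor for high-density lipoprotein, had log2 differences of 0.16 and 0.26 between Wfs1KO and WT, each smaller than its standard error. Over the 6 genes the median log2 difference was -0.07 in Wfs1KO against WT and 0.13 in Wfs1KO against Wfs1HZ.

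All 5 regulators had a higher mean in Wfs1KO than in either other genotype. Against WT 2 of them (40%) had an unadjusted p under 0.05, as did 5.64% of all entries. Insig1, which retains SCAP and is itself a target of SREBP, had the highest level and the largest difference. It stood at 32.2, 16.3, 24.8 and 29.2 RPKM in WT, at 24.8, 29.2, 38.8 and 23.7 in Wfs1HZ, and at 72.4, 64.6, 39.6 and 28.9 in Wfs1KO. Wfs1KO 1, 2 and 3 were above all WT and Wfs1HZ animals, and Wfs1KO 4 lay among them. On the log2 scale the difference was 0.95 against WT (SE 0.33, exact permutation p = 0.0857, limma adjusted p = 0.835) and 0.75 against Wfs1HZ (SE 0.32, exact permutation p = 0.0857). Against WT its unadjusted limma p was no longer under 0.05 without WT 2, Wfs1KO 1 or Wfs1KO 2. Against Wfs1HZ it was over 0.05 with either other scaling and without any of Wfs1HZ 1, 2 and 4 and Wfs1KO 1 and 2.

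Srebf2, which encodes the SREBP that drives most of the synthesis genes, stood at 25.4, 15.7, 13.4 and 19.5 RPKM in WT, at 14.7, 22.3, 22.2 and 20.9 in Wfs1HZ, and at 39.3, 30.8, 22.4 and 25.7 in Wfs1KO. Every Wfs1KO animal was above every Wfs1HZ animal, by a narrow margin for Wfs1KO 3, and WT 1 lay within the Wfs1KO values. The log2 difference was 0.68 against WT (SE 0.25, exact permutation p = 0.0571) and 0.55 against Wfs1HZ (SE 0.25, exact permutation p = 0.0286). Against Wfs1HZ the unadjusted limma p of Srebf2 was 0.0516, so it was not under 0.05. In limma its unadjusted p against WT was over 0.05 without WT 2, WT 3, Wfs1KO 1 or Wfs1KO 2. Srebf1, the SREBP of fatty acid synthesis, had a mean of 4.92 RPKM in WT, 5.70 in Wfs1HZ and 7.89 in Wfs1KO, with a log2 difference of 0.71 against WT (SE 0.43, exact permutation p = 0.171). Scap and Insig2 differed from WT by 0.05 and 0.17, less than their standard errors of 0.23 and 0.27.

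**Figure D3:**
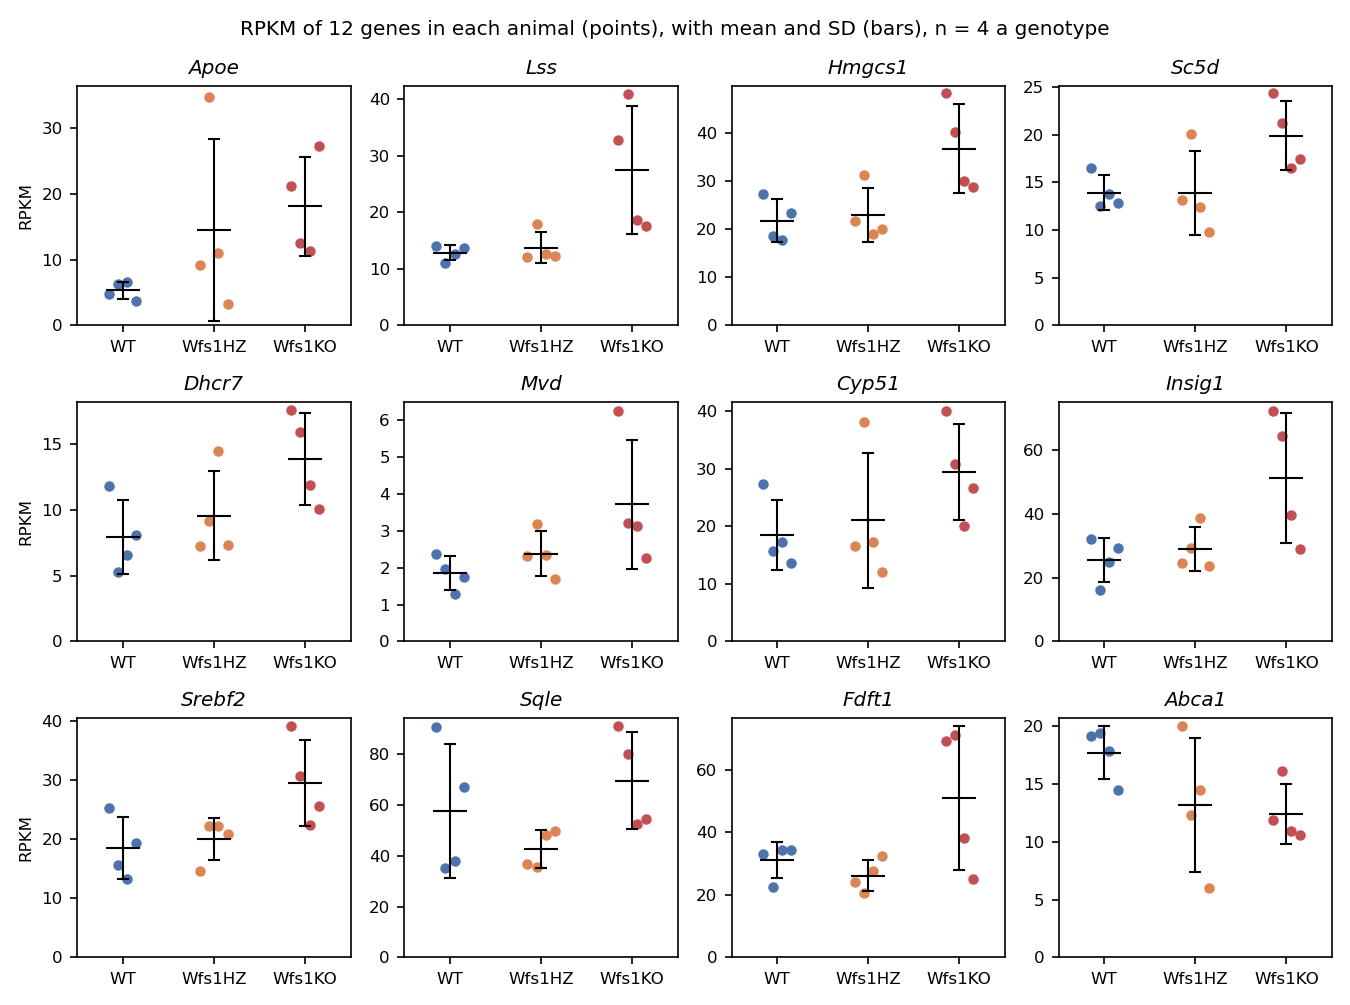
RPKM (y axis) of 12 of the genes in each animal (points), by genotype, with the mean and SD of 4 animals (bars). Apoe, Lss, Hmgcs1 and Sc5d have every Wfs1KO point above every WT point, the nearest pair being Sc5d at 16.5 and 16.6 RPKM, and in Lss, Insig1 and Fdft1 the Wfs1KO animals 1 and 2 stand well above animals 3 and 4.

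Of the 16 enzymes 14 had a higher mean in Wfs1KO than in WT, with a median log2 difference of 0.56. An unadjusted p under 0.05 was found for 6 (37.5%), against 5.64% of all entries, all 6 of them higher. For 3 of them (18.8% of the 16) the animals did not overlap in the values as deposited, against 2.74% of all entries. In Wfs1HZ against WT 10 were higher, with a median of 0.07 and no such p, and in Wfs1KO against Wfs1HZ 15 were higher, with a median of 0.56 and 5 such p-values (31.2%), against 2.45% of all entries. The median against WT stayed between 0.41, without Wfs1KO 1, and 0.67, without Wfs1KO 3. That of Wfs1HZ against WT ranged from -0.20, without Wfs1HZ 2, to 0.16, without WT 1.

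Among the enzymes that build the isoprenoid units, Hmgcs1, which condenses acetoacetyl-CoA to HMG-CoA, differed most clearly. It stood at 27.4, 18.5, 17.7 and 23.4 RPKM in WT, at 21.7, 31.2, 19.1 and 20.0 in Wfs1HZ, and at 48.1, 40.1, 29.9 and 28.7 in Wfs1KO. All Wfs1KO animals were above all WT animals, and Wfs1HZ 2 lay within the Wfs1KO values. On the log2 scale the difference was 0.74 against WT (SE 0.22, exact permutation p = 0.0286, limma adjusted p = 0.835) and 0.67 against Wfs1HZ (SE 0.25, exact permutation p = 0.0857). The unadjusted limma p of Hmgcs1 was under 0.05 in each refit without a WT or Wfs1KO animal against WT, but not against Wfs1HZ without Wfs1HZ 1, Wfs1HZ 3, Wfs1KO 1 or Wfs1KO 2. Mvd, which decarboxylates mevalonate diphosphate, stood at 2.38, 1.97, 1.28 and 1.75 RPKM in WT, at 2.32, 3.17, 2.33 and 1.70 in Wfs1HZ, and at 6.24, 3.22, 3.12 and 2.27 in Wfs1KO. Only Wfs1KO 4 of its group lay within the WT values, and the log2 difference against WT was 0.90 (SE 0.36, exact permutation p = 0.0571). The Mvd levels rest on roughly 6.9 to 111 reads a library, the fewest in WT 3. Without WT 2, WT 3, WT 4, Wfs1KO 1 or Wfs1KO 2 the unadjusted limma p of Mvd was no longer under 0.05.

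Mvk, mevalonate kinase, stood at 2.33, 2.75, 2.27 and 1.22 RPKM in WT, at 1.70, 1.37, 1.31 and 0.96 in Wfs1HZ, and at 4.01, 2.64, 2.01 and 4.02 in Wfs1KO. The Wfs1KO animals were all above the Wfs1HZ animals and overlapped with WT. Mvk rested on roughly 8 to 103 reads a library, the fewest in Wfs1HZ 2. The log2 difference was 1.16 against Wfs1HZ (SE 0.43, exact permutation p = 0.0286) and 0.54 against WT (SE 0.36, exact permutation p = 0.2). Its unadjusted limma p against Wfs1HZ was over 0.05 without Wfs1KO 1 or Wfs1KO 4. Pmvk, the next kinase of the pathway, had its highest mean in Wfs1HZ, with 13.6 RPKM in WT, 18.0 in Wfs1HZ and 12.3 in Wfs1KO, with a log2 difference of -0.61 between Wfs1KO and Wfs1HZ (SE 0.29, exact permutation p = 0.0857). Acat2, Idi1 and Fdps, a thiolase, an isomerase and the synthase of farnesyl diphosphate, had log2 differences against WT of 0.63, 0.58 and 0.11 with standard errors of 0.32, 0.41 and 0.51. In Fdps Wfs1KO 1 and 2 stood at 17.4 and 20.6 RPKM and Wfs1KO 3 and 4 at 6.27 and 4.36, so the group spanned the whole WT range of 5.96 to 14.1.

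From squalene onwards the most abundant enzyme RNA was Sqle, squalene epoxidase. It stood at 90.8, 35.2, 37.7 and 67.1 RPKM in WT, at 36.9, 35.6, 48.3 and 49.5 in Wfs1HZ, and at 91.1, 79.9, 52.4 and 54.4 in Wfs1KO. The Wfs1KO animals were all above the Wfs1HZ animals, while WT spread over the range of both. On the log2 scale the difference was 0.68 against Wfs1HZ (SE 0.25, exact permutation p = 0.0286) and 0.34 against WT (SE 0.34, exact permutation p = 0.4). The unadjusted limma p against Wfs1HZ was under 0.05 with the values as deposited, and not with either other scaling or without Wfs1HZ 1, Wfs1HZ 2, Wfs1KO 1 or Wfs1KO 2. Fdft1, squalene synthase, stood at 33.2, 22.4, 34.4 and 34.5 RPKM in WT, at 24.1, 20.7, 27.5 and 32.3 in Wfs1HZ, and at 69.4, 71.3, 38.3 and 25.1 in Wfs1KO. Wfs1KO 1 and 2 were at about the same level, Wfs1KO 3 was slightly above all other animals, and Wfs1KO 4 lay among them. The log2 difference was 0.85 against Wfs1HZ (SE 0.34, exact permutation p = 0.0857) and 0.61 against WT (SE 0.34, exact permutation p = 0.2). Against Wfs1HZ its unadjusted limma p was over 0.05 with either other scaling and without any of Wfs1HZ 1, 2 and 3 and Wfs1KO 1 and 2.

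Lss, which folds squalene epoxide into lanosterol, had the largest difference of the enzymes against WT. Lss stood at 14.1, 11, 12.7 and 13.8 RPKM in WT, at 12.1, 17.9, 12.6 and 12.4 in Wfs1HZ, and at 32.9, 40.9, 18.7 and 17.6 in Wfs1KO. All Wfs1KO animals were above all WT animals, and Wfs1HZ 2 was the single other animal to reach the lowest Wfs1KO value. On the log2 scale the difference was 1.00 against WT (SE 0.28, 2.00-fold, exact permutation p = 0.0286, limma adjusted p = 0.835) and 0.92 against Wfs1HZ (SE 0.31, exact permutation p = 0.0571). Cyp51, which demethylates lanosterol, stood at 27.3, 15.7, 17.2 and 13.7 RPKM in WT, at 16.6, 38.2, 17.3 and 12.1 in Wfs1HZ, and at 40.1, 30.9, 20.1 and 26.7 in Wfs1KO. WT 1 lay within the Wfs1KO values and Wfs1HZ 2 near their top. The log2 difference against WT was 0.68 (SE 0.27, exact permutation p = 0.0857). Its unadjusted limma p was over 0.05 without WT 2, WT 3, WT 4 or any of Wfs1KO 1, 2 and 4.

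Sc5d and Dhcr7 act at the end of the pathway, as a desaturase and as the reductase that yields cholesterol. Sc5d stood at 16.5, 12.5, 13.8 and 12.8 RPKM in WT, at 13.2, 20.1, 12.4 and 9.76 in Wfs1HZ, and at 24.4, 21.3, 16.6 and 17.4 in Wfs1KO. Wfs1KO and WT did not overlap, though Wfs1KO 3 and WT 1 were almost equal, and Wfs1HZ 2 lay within the Wfs1KO values. The log2 difference against WT was 0.50 (SE 0.18, exact permutation p = 0.0286), and the unadjusted limma p was over 0.05 without Wfs1KO 1 or Wfs1KO 2. Dhcr7 stood at 11.8, 5.25, 6.54 and 8.11 RPKM in WT, at 7.26, 9.16, 14.5 and 7.31 in Wfs1HZ, and at 17.6, 15.9, 11.9 and 10.1 in Wfs1KO. Wfs1KO 4 was the one Wfs1KO animal below WT 1. The log2 difference against WT was 0.83 (SE 0.29, exact permutation p = 0.0571), and the unadjusted limma p was over 0.05 without WT 2 or Wfs1KO 1.

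Nsdhl, Hsd17b7 and Ebp, which act between lanosterol and these last steps, had log2 differences against WT of 0.20, -0.04 and 0.40 with standard errors of 0.38, 0.31 and 0.39. An entry named Sc4mol, the older symbol of the absent Msmo1, was not counted as a member. It stood at 89.7, 24.9, 32.5 and 48.1 RPKM in WT, at 31.7, 54.8, 50.3 and 31.7 in Wfs1HZ, and at 115, 103, 59.4 and 49.8 in Wfs1KO, and WT 1 lay within the Wfs1KO values. Stard4, which carries sterol through the cytosol and is also under SREBP, stood at 10.9, 8.66, 14.5 and 9.61 RPKM in WT, at 10.5, 15.6, 13.4 and 7.88 in Wfs1HZ, and at 14.2, 11.9, 12.2 and 14.6 in Wfs1KO. The groups overlapped, and the log2 difference against WT was 0.29 (SE 0.20, exact permutation p = 0.143).

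**Figure D4:**
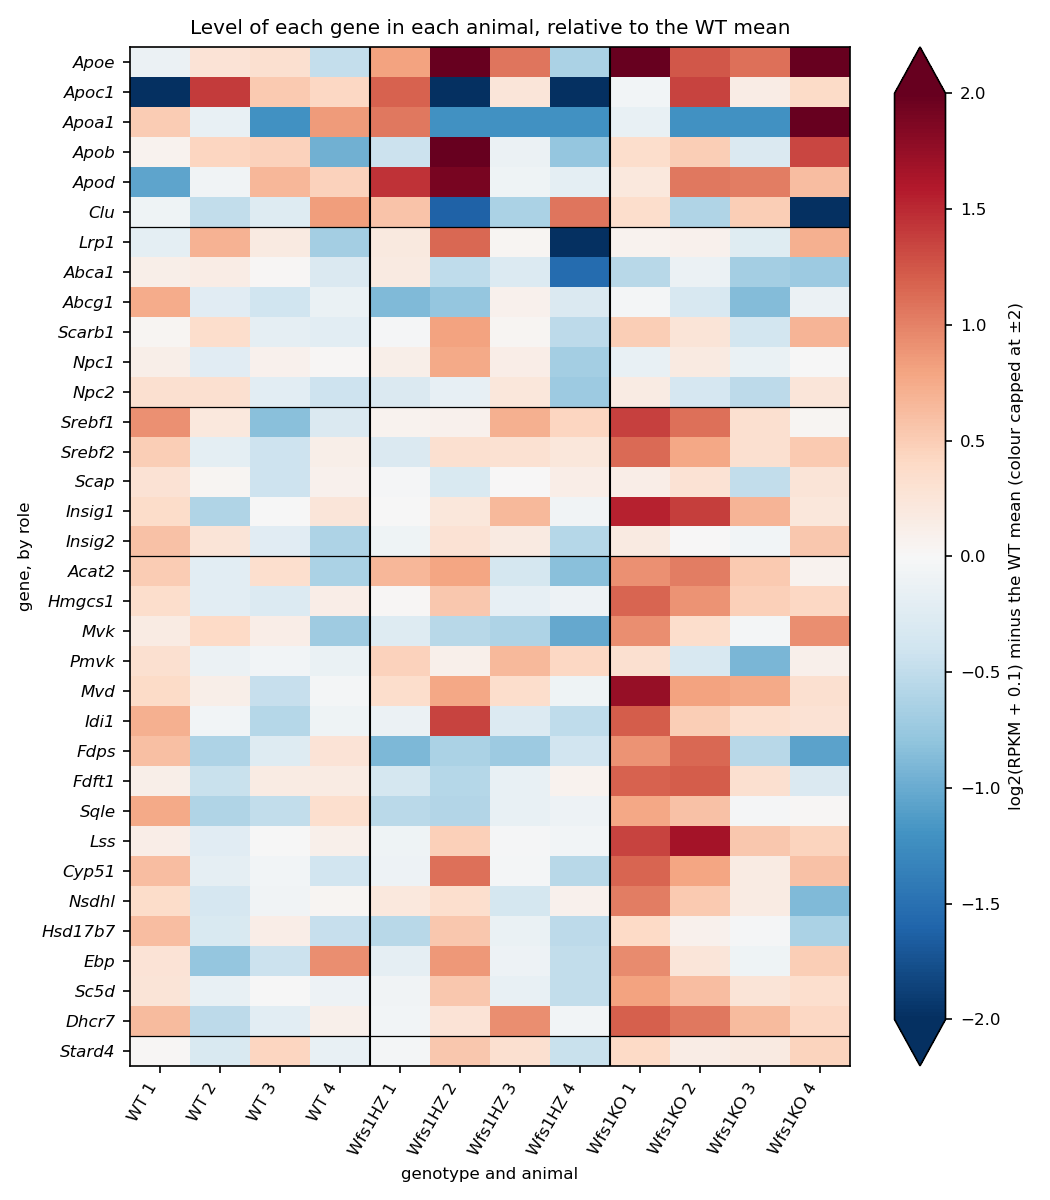
Each cell is log2(RPKM + 0.1) of a gene (rows, by role) in an animal (columns) minus the WT mean of that gene, with the colour capped at 2 in either direction. The enzyme rows are red for all 16 genes in Wfs1KO 1 and for 15 in Wfs1KO 2, and for 10 and 12 in Wfs1KO 3 and 4; all 16 are also above the WT mean in WT 1.

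As a group, the enzymes did not separate the genotypes animal by animal. The mean log2(RPKM + 0.1) over the 16 enzymes was 3.06 ± 0.30 in WT, 3.02 ± 0.26 in Wfs1HZ and 3.55 ± 0.44 in Wfs1KO (mean ± SD, n = 4). Wfs1KO 1 (4.06) and Wfs1KO 2 (3.76) were the highest of the 12 animals, WT 1 (3.48) and Wfs1HZ 2 (3.39) came next, and Wfs1KO 3 (3.22) and Wfs1KO 4 (3.16) followed. Of the 16 enzymes, 15 were above every WT animal in Wfs1KO 1, 10 in Wfs1KO 2, 7 in Wfs1KO 3 and 4 in Wfs1KO 4, against 7 in Wfs1HZ 2 and at most 2 in the other Wfs1HZ animals. Wfs1KO 1 and 2 had acinar sums of 77710 and 68464 RPKM and stromal sums of 64.3 and 82.6 RPKM, within the range of the other libraries. Their ductal sums over 7 marker genes, 1873 and 1927 RPKM, were the highest of all 12 libraries, against 195 to 1389 in the others, and the duct gene Spp1 alone gave 1697 and 1827 RPKM of them. WT 1 and Wfs1HZ 2, next in enzyme level, had ductal sums of 778 and 437 RPKM. Of the 7 ductal markers 4 had a higher mean log2 level in Wfs1KO than in WT, 1 with an unadjusted p under 0.05, which 5.64% of all entries had. Of 8 beta cell markers tested 2 had a higher mean in Wfs1KO than in WT, with a median log2 difference of -0.63, and the part of cell composition in the enzyme levels was not tested.

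Apoe put the animals in a partly different order. Its highest values were in Wfs1HZ 2 and Wfs1KO 4, which ranked 4 and 6 of 12 for the enzymes, and WT 1, at rank 3 for the enzymes, was at rank 10 for Apoe. Other animals kept their place: Wfs1HZ 4 was at rank 12 and Wfs1KO 3 at rank 5 on both measures. All Wfs1KO animals and Wfs1HZ 2 were at rank 6 or higher on both. Apoe minus the enzyme mean, on the log2 scale, was -1.19, -0.12, -0.19 and -1.09 in WT, 0.24, 1.73, 0.50 and -0.99 in Wfs1HZ, and 0.36, -0.10, 0.30 and 1.62 in Wfs1KO. The means were -0.65 ± 0.57, 0.37 ± 1.12 and 0.54 ± 0.74 (mean ± SD, n = 4). Wfs1KO 2 and WT 2 were nearly equal on this measure, and the Wfs1KO animals ranged from -0.10 to 1.62. The difference between the means of Wfs1KO and WT was 1.19, above the SD of either group, and 0.84 without Wfs1KO 4. No test was made of this difference, since the genes were chosen with results of these data known.

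**Figure D5:**
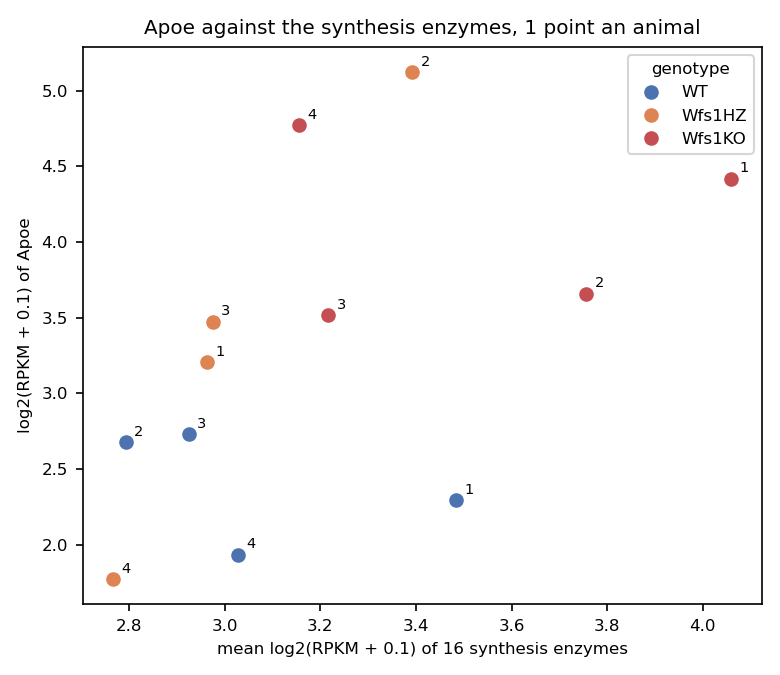
Log2(RPKM + 0.1) of Apoe (y axis) against the mean of the 16 synthesis enzymes (x axis), 1 numbered point an animal. Wfs1KO 1 and 2 lie farthest right, at 4.06 and 3.76, while Wfs1HZ 2 and Wfs1KO 4 lie highest without the enzyme level of those animals.

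Other genes of sterol and lipid handling were taken from 4 lists, and no list had more than 3 genes with an unadjusted p under 0.05 in a comparison. Of 14 fatty acid genes under SREBP1, 10 were higher in Wfs1KO than in WT (57.4% of all entries were), with a median log2 difference of 0.09. An unadjusted p under 0.05 was found for 1 of the 14 (7.14%), against 5.64% of all entries. That gene, Acly, which makes cytosolic acetyl-CoA, was lower: 85.9, 64.4, 50.9 and 81.1 RPKM in WT, 53.4, 34.8, 52.4 and 48.0 in Wfs1HZ, and 53.5, 51.4, 28.4 and 40.6 in Wfs1KO. Its log2 difference against WT was -0.71 in Wfs1KO (SE 0.25, exact permutation p = 0.0857) and -0.57 in Wfs1HZ (SE 0.23, exact permutation p = 0.0857). The unadjusted limma p was over 0.05 without WT 1 (-0.61 and -0.47) or WT 4 (-0.64 and -0.50) in both, and in Wfs1HZ also without WT 2 (-0.61) or Wfs1HZ 2 (-0.43) and with either other scaling. Scd2, a fatty acid desaturase, stood at 46.3, 20.9, 25.8 and 33.0 RPKM in WT, at 19.3, 22.5, 18.8 and 18.8 in Wfs1HZ, and at 73.2, 41.1, 35.4 and 25.9 in Wfs1KO. The Wfs1HZ animals lay close together, below all Wfs1KO animals, and WT 2 lay among them. Its log2 difference was 1.04 in Wfs1KO against Wfs1HZ with no overlap (SE 0.30, exact permutation p = 0.0286) and -0.60 in Wfs1HZ against WT (SE 0.25, exact permutation p = 0.0571). The latter was -0.39 without WT 1, and its unadjusted limma p was over 0.05 without WT 1, WT 4 or any of Wfs1HZ 1, 3 and 4, and with either other scaling. Elovl6, a fatty acid elongase, stood at 10.1, 8.12, 9.03 and 10.99 RPKM in WT, at 9.27, 7.67, 7.09 and 6.84 in Wfs1HZ, and at 17.9, 18.6, 7.88 and 12.9 in Wfs1KO. Wfs1KO 3 lay among the Wfs1HZ animals and the other 3 above them. The log2 difference between Wfs1KO and Wfs1HZ was 0.82 (SE 0.31, exact permutation p = 0.0571), and its unadjusted limma p was over 0.05 without Wfs1HZ 3 (0.78), Wfs1KO 1 (0.68) or Wfs1KO 2 (0.66).

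Of 13 LXR and efflux genes 9 were higher in Wfs1KO than in WT with a median of 0.06, and 1 (7.69%, against 5.64% of all entries) had an unadjusted p under 0.05, Pltp, which encodes the phospholipid transfer protein of plasma lipoproteins. Pltp stood at 2.71, 8.41, 7.78 and 3.89 RPKM in WT, at 10.4, 40.6, 7.60 and 4.85 in Wfs1HZ, and at 9.18, 10.8, 9.89 and 20.0 in Wfs1KO. As with Apoe, Wfs1HZ 2 and Wfs1KO 4 were the highest animals, and Wfs1KO and WT did not overlap (log2 difference 1.19, SE 0.40, exact permutation p = 0.0286). The difference was 0.94 without Wfs1KO 4, and its unadjusted limma p stayed under 0.05. Of 16 genes of uptake, storage and oxysterols 9 were higher and 3 (18.8%) had such a p. Stard3, an endosomal sterol transfer protein, was higher without overlap in both mutant groups: 4.10, 4.60, 3.78 and 4.04 RPKM in WT, 7.59, 6.98, 5.73 and 5.72 in Wfs1HZ, and 7.59, 5.30, 5.47 and 8.15 in Wfs1KO. Its log2 difference against WT was 0.65 in Wfs1KO (SE 0.22, exact permutation p = 0.0286) and 0.64 in Wfs1HZ (SE 0.24, exact permutation p = 0.0286). In Wfs1HZ its unadjusted limma p was over 0.05 without WT 3 (0.60), WT 4 (0.63) or Wfs1HZ 1 (0.56). Lipa, the lysosomal lipase that frees cholesterol, stood at 14.2, 9.35, 11.8 and 15.7 RPKM in WT, at 9.15, 13.4, 13.3 and 9.46 in Wfs1HZ, and at 7.81, 9.52, 7.55 and 8.64 in Wfs1KO. Of the WT animals only WT 2 lay within the Wfs1KO values. The log2 difference was -0.58 (SE 0.20, exact permutation p = 0.0571), and the unadjusted limma p was over 0.05 without WT 4 (-0.47). Sorl1, a sorting receptor that binds APOE, stood at 12.4, 4.88, 7.5 and 14.1 RPKM in WT, at 7.54, 4.06, 8.97 and 7.42 in Wfs1HZ, and at 4.38, 7.01, 4.55 and 2.84 in Wfs1KO. Here too WT 2 lay within the Wfs1KO values. The log2 difference was -0.99 (SE 0.39, exact permutation p = 0.0571), and -0.77 without WT 4 or without Wfs1KO 4. Its unadjusted limma p was over 0.05 without WT 1, WT 4 or any of Wfs1KO 1, 3 and 4.

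Among 5 further synthesis genes tested, 3 were higher in Wfs1KO than in WT and 2 lower, with a median log2 difference of 0.36 and no unadjusted p under 0.05. Acat1, the mitochondrial thiolase, stood at 23.5, 22.7, 19.7 and 19.9 RPKM in WT, at 15.8, 17.6, 14.8 and 7.92 in Wfs1HZ, and at 15.2, 18.0, 10.7 and 29.3 in Wfs1KO. All Wfs1HZ animals were below all WT animals, and the Wfs1KO animals lay on both sides of the WT values. The log2 difference against WT was -0.67 in Wfs1HZ (SE 0.26, exact permutation p = 0.0286) and -0.32 in Wfs1KO (SE 0.28, exact permutation p = 0.314). In Wfs1HZ the unadjusted limma p was over 0.05 without WT 1 (-0.62) or WT 2 (-0.64), and the difference was -0.42 without Wfs1HZ 4. None of the genes of these lists had an adjusted p under 0.2 in any comparison.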

How the data were processed

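From 10 ng of islet RNA an animal the authors made cDNA (Ovation kit) and fragment libraries for SOLiD sequencing. Reads were mapped by LifeScope against mm10, and the authors deposited RPKM values, 1 column an animal. The gene annotation and counting tool are not given in the sources used here. The authors' own edgeR test needs counts and was not rerun on RPKM. In the paper that test called Apoe higher in Wfs1KO than in WT islets at a false discovery rate under 0.05. The paper's RT-PCR of Apoe found a trend in that direction without statistical significance.

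Genotypes came from the labels, which give no batch. Values were used as log2(RPKM + 0.1) without further scaling. Each pair of genotypes was fitted with limma 3.58.1 (R 4.3.3, variance trend) on entries with a mean of at least 0.1 RPKM, with Benjamini-Hochberg adjustment. Single genes also had an exact two-sided permutation test (scipy 1.17.1). The fit was also run on simulated data with known changes, and the share of changes it recovered is not reported here. Depth was estimated from the steps between low RPKM values of genes shorter than 200 nt, where a step is 1 read. At these depths 3 reads on a 2 kb transcript equal 0.157 to 0.684 RPKM. Reads a gene use GENCODE M21 exon lengths and are upper estimates that cover counting error only. Promoters are from RefSeq.

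Members, lists and tests were chosen with earlier results of these data known. Values in every animal are given for Apoe, for genes with an unadjusted p under 0.05 or no overlap in any comparison, for the most abundant gene of each role, and for pathway genes with such a p or no overlap. Alternatives were another pseudocount, filter, scaling or weighting, 1 fit of all samples, a replicate block, and leaving out each animal. One gene of these lists is not reported here, and pathway genes outside them were not analysed here.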

Additional observations from a re-analysis of the deposited data

Results flagged for a closer look

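Of 102 groups of 4 values checked (34 genes in 3 genotypes), 4 held an animal far from the other 3 by Dixon's gap ratio at its 95% limit; chance alone flags about 1 in 20. Fdft1 in WT had a ratio of 0.91, with 22.4 RPKM in WT 2 against 33.2 to 34.5 RPKM in the others. Lss in Wfs1HZ had a ratio of 0.883, with 17.9 RPKM in Wfs1HZ 2 against 12.1 to 12.6. Srebf2 in Wfs1HZ had a ratio of 0.848, with 14.7 RPKM in Wfs1HZ 1 against 20.9 to 22.3. Apoa1 in Wfs1HZ had a ratio of 1.0, because it was at 0.38 RPKM in Wfs1HZ 1 and listed at 0 in the other 3.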

How the results depend on the processing

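The count of 10 members with an unadjusted p under 0.05 in Wfs1KO against WT ranged from 4 (without WT 2 or Wfs1KO 1) to 11 when 1 animal was left out, and stayed within 1.5 times under the other alternatives (7 to 13). The count of 0 in Wfs1HZ against WT became 1 with no filter on low values, with median-of-ratios scaling, with quantile normalization and with the replicate block, 3 with sample weights (7.09% of all entries had such a p there), and 0 to 2 with 1 animal left out. The count of 6 in Wfs1KO against Wfs1HZ became 15 with sample weights (10.3% of all entries) and 3 with the replicate block, and 2 to 7 with 1 animal left out. The Apoe log2 difference in Wfs1HZ against WT had an unadjusted p under 0.05 with median-of-ratios scaling (1.03), quantile normalization (1.07), sample weights (0.95) and the replicate block (0.99). It ranged from 0.41 to 1.53 when 1 animal was left out, the highest without Wfs1HZ 4, where its unadjusted p was under 0.05. In Wfs1KO against Wfs1HZ that range was 0.16 to 1.27, and in Wfs1KO against WT 1.46 to 1.88. The cause of these shifts was not tested. With sample weights 3 of the 16 enzymes were higher in Wfs1HZ than in WT (median -0.12), against 10 unweighted (0.07). No difference given here with an unadjusted p under 0.05 changed sign under an alternative, and the Clu difference in Wfs1KO against WT, which had no such p, ranged from -0.81 to 0.084 when 1 animal was left out, the highest without Wfs1KO 4. The lowest adjusted p of a member in Wfs1KO against WT ranged from 0.155 (quantile normalization) to 1 (all 12 samples in a single fit).

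Replicate numbers name different animals, and same-numbered animals did not deviate together (correlations -0.174 to 0.228). With the replicate number as a block, 12 members had an unadjusted p under 0.05 in Wfs1KO against WT, 1 in Wfs1HZ against WT and 3 in Wfs1KO against Wfs1HZ. Of all entries, 1091, 854 and 395 did, against 1225, 511 and 532 without the block. Depth limits Apoc1 and Apoa1, which rest on a few reads a library. Single libraries also held few reads of other members. Mvd and Idi1 had about 6.9 and 6 in WT 3, and Mvk about 8 in Wfs1HZ 2.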
